A study of Mus musculus with 3 samples.

Results

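Polycomb genes were described in 4T1 cells, an established line of mouse mammary carcinoma, made to over-express WISP2, which is secreted and belongs to the CCN family. The 9 genes were Ezh2, Ezh1, Suz12, Eed and Jarid2 of Polycomb repressive complex 2 (PRC2), and Rnf2, Bmi1, Cbx2 and Cbx7 of Polycomb repressive complex 1 (PRC1). They were taken by symbol from the 34591 genes of a table of RNA sequencing counts, and all 9 were in it. The series holds 3 libraries of 1 group, WISP2 over-expressing cells. The labels' protocols describe transduction with packaged vector and puromycin selection, but for constructs of Wisp1 and not of WISP2, and they say neither whether the cells are 1 clone nor whether the libraries came from separate cultures. The spread given here therefore covers these 3 samples and may be technical. The study set these cells against empty-vector cells, which were not analysed here, so the values are levels in over-expressing cells, and an effect of WISP2 cannot be estimated from them.

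PRC2 places methyl groups on lysine 27 of histone H3, a mark of silenced genes. EZH2 or its paralog EZH1 is the catalytic subunit, SUZ12 and EED complete the core, and cofactors such as JARID2 help recruit the complex. PRC1 attaches ubiquitin to histone H2A through the RING proteins RING1B, the product of Rnf2, or RING1. A PCGF protein such as BMI1 stands beside the RING protein, and in canonical PRC1 a CBX protein such as CBX2 or CBX7 reads the methyl mark. In proliferating cells EZH2 is commonly the main methyltransferase, whereas EZH1 is better known from resting cells, and both complexes are known for holding developmental regulators silent.

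The libraries, called C1, C2 and C3 after their column suffixes, held 17630755, 67028365 and 47577315 counts, and levels are given as CPM, the count divided by its library's total and multiplied by 1000000. On that scale 1 count was worth 0.0567, 0.0149 and 0.0210 CPM in C1, C2 and C3. Wisp2 itself stood at 429, 384 and 454 CPM in C1, C2 and C3. All 5 epithelial markers examined (Krt8, Krt18, Krt7, Cdh1 and Epcam) were above 1 CPM in every library, as were all 6 proliferation genes. Of 7 fibroblast markers 1 reached 1 CPM in every library (Pdgfra) and Lum and Thy1 were at 0, and none of 4 endothelial markers did. Of 8 leukocyte markers 2 did (Lyz2 and Cd68) and Cd3e was at 0, and their summed level was 18.4 CPM in C1 against 9.49 and 9.77 CPM in C2 and C3. Without C1 the mean CPM of each of the 9 Polycomb genes moved by less than its SD, but with 3 libraries this holds for any gene. Any part of the higher leukocyte sum of C1 in their levels was not tested.

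The promoters of Ezh2 and Ezh1, the paralogs that encode the catalytic subunit, and of Suz12, the most abundant of the 9 genes, are shown first. Each line gives the 250 bases before the annotated start, from RefSeq on build GRCm38.p6, which is not the build the submitters name. Capitals mark CCAAT, read on both strands, and the E2F-type motifs searched, TTTCCCGC, TTTCGCGC, TTTGCCGC and TTTGGCGC, likewise on both strands.
Ezh2: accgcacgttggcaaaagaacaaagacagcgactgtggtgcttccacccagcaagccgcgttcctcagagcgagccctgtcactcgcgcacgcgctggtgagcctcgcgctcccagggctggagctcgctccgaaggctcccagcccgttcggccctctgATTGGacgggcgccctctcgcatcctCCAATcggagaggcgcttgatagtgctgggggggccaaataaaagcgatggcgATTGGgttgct
Ezh1: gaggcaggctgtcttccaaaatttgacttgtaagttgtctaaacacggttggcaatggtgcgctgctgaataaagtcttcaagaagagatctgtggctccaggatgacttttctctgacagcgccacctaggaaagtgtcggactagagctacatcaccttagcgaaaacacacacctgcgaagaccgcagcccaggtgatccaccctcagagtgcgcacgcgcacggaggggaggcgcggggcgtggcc
Suz12: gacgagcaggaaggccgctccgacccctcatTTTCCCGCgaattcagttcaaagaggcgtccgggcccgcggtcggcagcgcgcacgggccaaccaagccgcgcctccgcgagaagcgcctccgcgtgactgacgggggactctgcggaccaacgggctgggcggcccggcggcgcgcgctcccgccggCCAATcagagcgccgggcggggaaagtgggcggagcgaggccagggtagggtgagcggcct

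The Ezh2 window lies at chr6:47595031-47595280 on the minus strand and holds 3 CCAAT matches, of which 2 read ATTGG, and no E2F-type match. The Ezh1 window lies at chr11:101226464-101226713 on the minus strand and holds neither motif. The Suz12 window lies at chr11:79992856-79993105 on the plus strand and holds 1 CCAAT match and 1 E2F-type match. Over all 32851 windows of the table, 33.8% hold CCAAT and 1.9% an E2F-type match. These matches describe letters and do not show binding.

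The table listed 9 windows for 8 of the 9 genes, since Jarid2 had 2 and Cbx2 no entry. Matches are counted here per gene, and the shares over the table are per window. The windows of these genes held from 12 CpG in Eed to 37 in Suz12, all above the median of 6 over all windows. Those of Eed and Ezh1 (14) lay below the upper quartile of 16. The shares and medians over all windows were not limited to expressed genes. CCAAT occurred in 4 of the 8 genes (Ezh2, Suz12, Jarid2 and Cbx7) and an E2F-type match in 1 of them, Suz12. GGGCGG, a GC box read on both strands, occurred in 5 of the 8 genes and in 32.7% of all windows, with 6 matches in Bmi1, some of them overlapping. CCGGAAG, an ETS-type motif, occurred in 0 of the 8 genes and 6.9% of all windows, and TATAAA in 1, Jarid2, and 12.4% of all windows, again on both strands. In Jarid2 CCAAT was in one window and TATAAA in the other. Neither CCAAT nor an E2F-type match nor GGGCGG was found in the windows of Ezh1 and Eed.

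All 9 genes were expressed. Each reached 1 CPM in every library, a level that 33.8% of the genes in the table reached, and their median was 55.9 CPM, against 35.9 CPM for the 11700 genes that reached it. In bulk RNA, fewer expressing cells and less RNA per cell cannot be told apart. For comparing one gene with another, counts were divided by the annotated exon length and scaled to the same total in each library (TPM). On that scale the 9 genes spread widely: 5 lay above the median of the detected genes and 4 below it. Suz12 was highest at 180.3 ± 10.8 TPM (SD, n = 3), above 91.8% of detected genes. Jarid2 was lowest at 4.08 ± 0.187 TPM, above 11.3% of them.

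**Figure D1:**
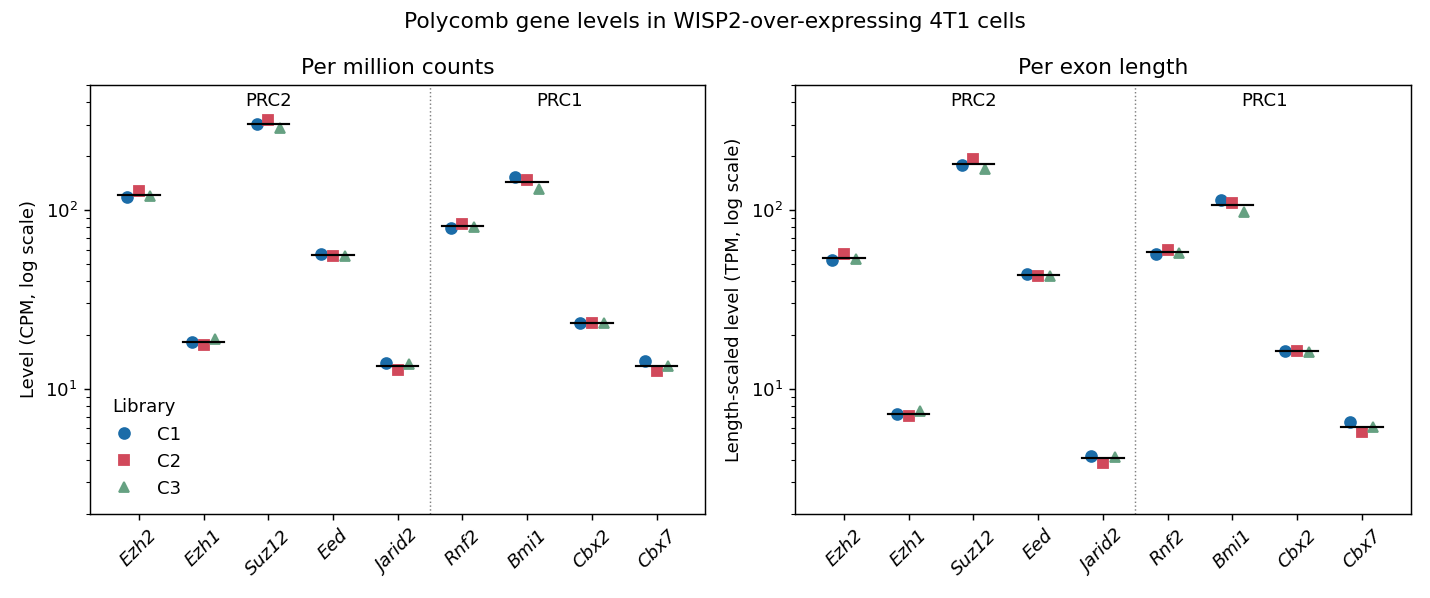
Levels of the 9 Polycomb genes in libraries C1, C2 and C3 of WISP2-over-expressing 4T1 cells, as CPM (left) and as length-scaled TPM (right), both on log axes; black lines are means over the 3 libraries. The libraries lie close together for each gene, while the genes range from 4.08 TPM for Jarid2 to 180.3 TPM for Suz12.

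The catalytic pair of PRC2 was made up mostly of Ezh2. Ezh2 stood at 118, 127 and 120.0 CPM in C1, C2 and C3, with exact 95% intervals, which cover counting error only, of 113.3 to 123.5, 124.8 to 130.2 and 116.9 to 123.2 CPM. C2 was the highest, and its interval lay above those of both other libraries. Ezh1 stood at 18.3, 17.7 and 18.9 CPM in the same libraries, with 95% intervals that overlapped (16.4 to 20.4, 16.7 to 18.7 and 17.7 to 20.2 CPM). Within libraries Ezh2 exceeded Ezh1 by 2.89 ± 0.10 on the log2 scale per exon length, a 7.42-fold ratio that held in 3 of 3 libraries. Ezh2 thus made up 88.1% ± 0.719 of the length-scaled level of the pair, with 87.8, 88.9 and 87.6% in C1, C2 and C3.

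Ezh2 is known to be transcribed mainly in dividing cells, and its level was set beside Mki67, a marker of proliferation. Ezh2 lay below Mki67 by 3.94-fold per exon length and by 1.64-fold per longest transcript. The log2 ratio of the pair varied by an SD of 0.03 over the libraries. Between members next to each other in level per exon length, this SD ran from 0.02 (Rnf2 over Ezh2) to 0.11 (Bmi1 over Rnf2). An SD this small is therefore not particular to the pair with Mki67. The 6 proliferation genes summed to 3405, 3550.4 and 3289 CPM in C1, C2 and C3. Their sum too was highest in C2, although Ccnb1 alone was highest in C1 (219.6, 218 and 210.2 CPM in C1, C2 and C3), and their part in the level of Ezh2 was not tested.

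The 3 core subunits of PRC2 were not at equal levels, and Suz12, the subunit that holds the core together, was the highest. Suz12 stood at 301, 319 and 285 CPM in C1, C2 and C3. C2 was high and C3 low, and the 95% intervals of those libraries (315 to 324 CPM and 281 to 290.2 CPM) were apart. Eed, which binds the methyl mark and stimulates the enzyme, stood at 56.8, 55.4 and 55.3 CPM in C1, C2 and C3, and these values lay within each other's intervals. Per exon length Ezh2 averaged 53.9 ± 2.34 TPM and Eed 43.1 ± 0.607 TPM (SD, n = 3). Ezh2 therefore lay 3.34-fold below Suz12 and 1.25-fold above Eed.

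How far apart the core subunits lay depended on the length that was used. The exons of all annotated Ezh2 transcripts cover 6678 bases, but its longest transcript has 2787. With the longest transcript of each gene, Suz12 averaged 160.3 ± 9.49 TPM, Ezh2 102 ± 4.37 TPM and Eed 62.8 ± 0.850 TPM. Ezh2 then lay 1.58-fold below Suz12 and 1.62-fold above Eed. Suz12 was the highest and Eed the lowest of the 3 subunits with either length, in 3 of 3 libraries.

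Jarid2, a DNA-binding cofactor that defines the PRC2.2 form of the complex, was the lowest of the 9 genes per length. C1, C2 and C3 held 245, 849 and 652 of its counts, or 13.9, 12.7 and 13.7 CPM, with overlapping intervals. Jarid2 lay 13.2-fold below Ezh2 per exon length and 27.2-fold below it per longest transcript. It also lay 9.26-fold below Mtf2, a Polycomb-like cofactor of the alternative PRC2.1 form. Among 6 cofactor genes (Jarid2, Aebp2, Mtf2, Phf1, Phf19 and Epop, listed as E130012A19Rik) Jarid2 took 2.91% ± 0.117 of the summed length-scaled level. Phf19 took 28.9% ± 0.152, Mtf2 27.0% ± 1.24 and Aebp2, which accompanies JARID2 in PRC2.2, 24.6% ± 0.285 (SD, n = 3). The order of these 3 cofactors rests on the length used, since Aebp2 was first per longest transcript (29.5% ± 0.271, against 28.1% ± 0.0764 for Phf19 and 27.3% ± 1.16 for Mtf2) and without length correction (39.3% ± 0.257). Jarid2 took the smallest of the 6 shares with either length. Without length correction Jarid2 took 4.58% ± 0.194, above Phf1 (4.20% ± 0.418) and Epop (3.44% ± 0.314).

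The other PRC2 genes ranged widely. Of 8 examined, 7 reached 1 CPM in every library, against 33.8% of all genes in the table. Ezhip, an inhibitor of PRC2 listed as AU022751, had 0 counts, so that a level of up to 0.170, 0.0448 or 0.0631 CPM in C1, C2 or C3 cannot be seen. The histone-binding genes Rbbp7 (378 ± 20.1 TPM) and Rbbp4 (117 ± 2.14 TPM), whose products are shared with other chromatin complexes, were the highest per length. Aebp2 stood at 34.5 ± 0.333 TPM and Mtf2 at 37.8 ± 1.39 TPM. The cofactor genes Phf1 (12.3 ± 1.29 CPM) and Epop (10.1 ± 0.970 CPM) were low. Opposite to Ezh2, the demethylase gene Kdm6a, whose product removes the methyl mark, stood at 12.4 ± 0.492 TPM. Ezh2 exceeded Kdm6a 4.36-fold per exon length and 7.39-fold per longest transcript. Kdm6a is not the only such gene. Kdm6b, another demethylase gene for this mark, stood at 14.0 ± 1.86 TPM per exon length and 11.5 ± 1.54 TPM per longest transcript. Its ratio to Ezh2 was not taken.

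In PRC1 the RING pair was made up mostly of Rnf2, whose product RING1B is the main ligase for histone H2A. Rnf2 stood at 79.4, 83.7 and 80.1 CPM in C1, C2 and C3, and the intervals overlapped. Ring1, its paralog, averaged 18.7 ± 1.01 CPM. Per exon length Rnf2 exceeded Ring1 by 1.76 ± 0.11 on the log2 scale, or 3.40-fold, and took 77.2% ± 1.34 of the pair's summed level. Exons of Rnf2 share 158 bases with Trmt1l, listed as 1190005F20Rik, a gene on the opposite strand at 38.2 ± 1.25 CPM. Whether the authors counted by strand is not given in the sources used here, and the part of that overlap in the count was not tested. Exons of Eed, Suz12 and Ezh2 also share 261, 178 and 174 bases with noncoding genes on the opposite strand (E230029C05Rik, Gm26563 and Gm26625), for which no counts were matched, so their part was not tested.

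Bmi1, the PCGF protein best known for repressing the Cdkn2a locus, was the second of the 9 genes per exon length. It stood at 152, 147 and 131 CPM in C1, C2 and C3, and C3 was the lowest, with an interval (128 to 135 CPM) below those of the other libraries. Bmi1 averaged 107 ± 8.29 TPM, 1.84-fold above Rnf2 and 3.98-fold above Pcgf2, its closest paralog. It took 47.4% ± 1.85 of the summed length-scaled level of the 6 PCGF genes. Pcgf3, which belongs to a variant PRC1 that lacks CBX proteins, followed with 21.8% ± 1.46. Without length correction Pcgf3 (37.8% ± 1.87) stood above Bmi1 (34.3% ± 1.91), so that the first place of Bmi1 rests on the division by length.

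Of the 4 CBX genes of canonical PRC1 compared here, the highest was outside the 9. Cbx2, whose product compacts chromatin, stood at 23.4 CPM in each of the 3 libraries, from 413, 1566 and 1111 counts. Cbx7, best known from stem cells, stood at 14.3, 12.6 and 13.5 CPM in C1, C2 and C3, with 95% intervals of 12.6 to 16.2, 11.8 to 13.5 and 12.5 to 14.6 CPM. The Cbx7 intervals overlapped, with C1 the highest and C2 the lowest. Cbx2 exceeded Cbx7 by 1.40 ± 0.09 on the log2 scale per exon length, or 2.65-fold, in 3 of 3 libraries.

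Of the summed length-scaled level of these 4 genes, Cbx6 took 57.3% ± 0.466, Cbx2 22.9% ± 0.299, Cbx8 11.1% ± 0.445 and Cbx7 8.67% ± 0.461 (SD, n = 3). Without length correction Cbx6 took 75.7% ± 0.309, Cbx2 12.2% ± 0.212, Cbx7 7.01% ± 0.355 and Cbx8 5.11% ± 0.225, so that Cbx7 then stood above Cbx8. Cbx7 lay 6.61-fold below Cbx6, which is its neighbour but one on chromosome 15. Exons of Cbx7 share 100 bases with Apobec3, which lies between these genes on the strand opposite to Cbx7 and stood at 43.8 ± 1.85 CPM. The part of that overlap in the Cbx7 count was not tested. Cbx8 is the protein-coding gene next to Cbx2 on chromosome 11, and Cbx2 exceeded it by 2.05-fold per exon length.

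**Figure D2:**
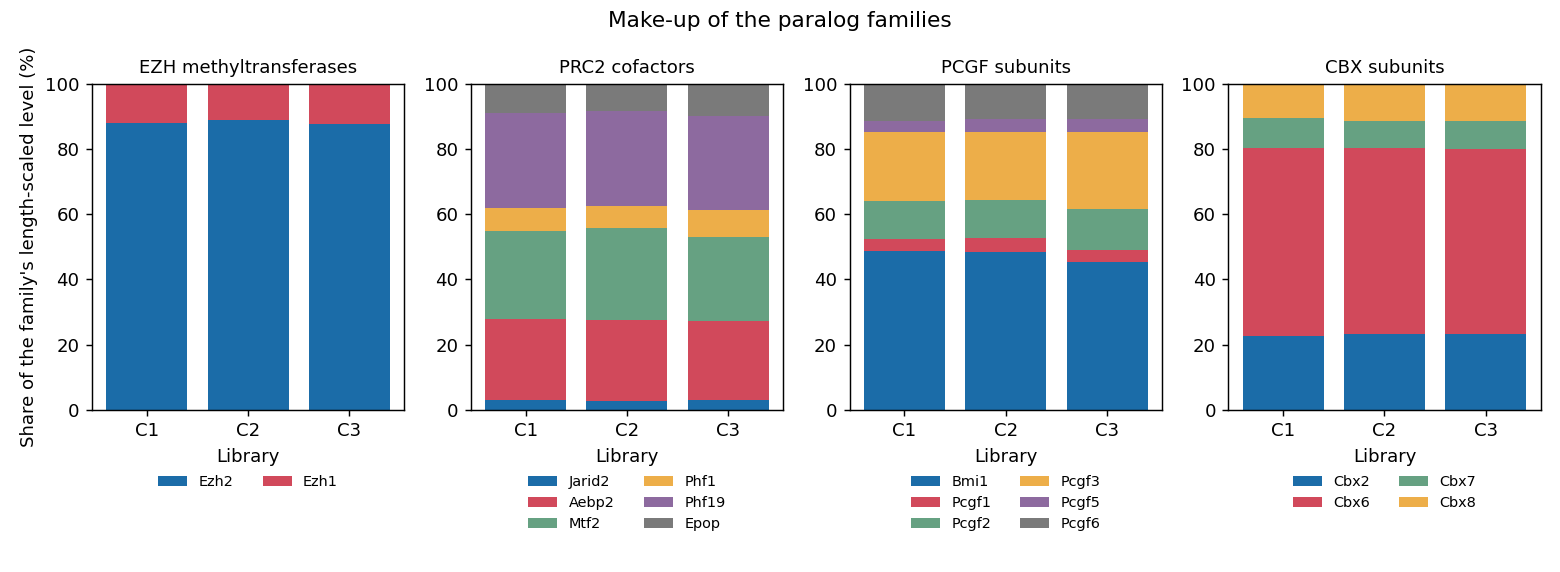
Share of each paralog in the summed length-scaled level of its family, in percent (vertical axis), for libraries C1, C2 and C3 (horizontal axis): the EZH pair, 6 PRC2 cofactors, 6 PCGF genes and 4 CBX genes, with Epop for E130012A19Rik. Ezh2 took 88.1% of the EZH pair and Bmi1 47.4% of the PCGF genes on average, whereas Jarid2 took 2.91% of the cofactors and Cbx7 8.67% of the CBX genes.

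Ordered by mean TPM over exon length, the genes ran Suz12, Bmi1, Rnf2, Ezh2, Eed, Cbx2, Ezh1, Cbx7 and Jarid2. Each neighbouring pair kept this order in 3 of 3 libraries, and each mean log2 difference exceeded its SD. The smallest step was that of Rnf2 (58.0 ± 1.84 TPM) over Ezh2, 1.08-fold. With longest transcripts Ezh2 moved to the second place and Eed passed Rnf2 (58.8 ± 1.85 TPM), so the order among Bmi1, Rnf2, Ezh2 and Eed turned on the length. That order too held in 3 of 3 libraries, but Ezh2 and Bmi1 were nearly equal in C1 (98.36 and 98.29 TPM). Their log2 difference per longest transcript, 0.13 ± 0.12, hardly exceeded its SD. Cbx2, Ezh1, Cbx7 and Jarid2 were the 4 lowest in the same order with either length. With 3 libraries an exact sign-flip test, two-sided, has 0.25 as its smallest p, and no such test was made.

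For each of the 9 genes the gene nearest to it in mean TPM over 3 libraries was taken from the other Polycomb genes and their opponents. Bmi1 (107 TPM) lay nearest to Phc2 (105 ± 9.14 TPM), a polyhomeotic subunit of canonical PRC1. Eed (43.1 TPM) lay nearest to Yaf2 (43.0 ± 1.17 TPM) and Cbx2 (16.2 TPM) to E2f6 (15.7 ± 0.770 TPM), both of variant PRC1. Rnf2 and Ezh2 were nearest to Bap1 (59.3 ± 0.142 TPM), the enzyme that removes ubiquitin from histone H2A. Suz12 lay nearest to Rbbp4, Ezh1 to Cbx8 (7.89 ± 0.218 TPM), Jarid2 to Nsd1 (3.70 ± 0.404 TPM) and Cbx7 to Kmt2c, listed as Mll3 (5.80 ± 0.637 TPM). With longest transcripts 4 of the 9 genes, Suz12, Jarid2, Rnf2 and Cbx7, had the same nearest gene, and Ezh2 (102 TPM) then lay nearest to Nsd2, listed as Whsc1 (129.9 ± 4.23 TPM).

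The remaining subunits were present almost throughout. Of 10 further genes of canonical PRC1, 8 reached 1 CPM in every library, led in CPM by Phc2 (250.3 ± 22.7), Cbx6 (146 ± 3.23), Phc3 (66.3 ± 2.31) and Scmh1 (34.2 ± 1.37). Scml2 had 0 counts and Scml4 had 10 over the 3 libraries. Of 15 genes of variant PRC1, 14 did so, led by Dcaf7 (161 ± 3.30 CPM), Pcgf3 (158 ± 5.68 CPM), the demethylase Kdm2b (85.2 ± 3.01 CPM) and the transcription factor Mga (75.2 ± 3.81 CPM), while Auts2 had 0 counts. Together, 29 of the 33 further genes of the complexes reached 1 CPM in every library, against 33.8% of all genes in the table. The median over all 33, those under 1 CPM included, was 35.1 CPM. It was 35.9 CPM for the 11700 genes that reached 1 CPM in every library.

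Of 15 genes whose products oppose Polycomb silencing or place competing marks, 13 reached 1 CPM in every library, against 33.8% of all genes in the table. The H3K36 methyltransferase genes Nsd2, listed as Whsc1, and Setd2 stood at 436 ± 13.1 CPM and 162 ± 9.41 CPM. Asxl1, the partner of BAP1, stood at 122 ± 3.11 CPM and Kmt2a, listed as Mll1, at 94.8 ± 11.3 CPM. Asxl3 and the Y-linked Uty had 0 counts.

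Genes known as Polycomb targets in mouse embryonic stem cells were nearly silent. Their list was drawn up with earlier results of these data known. Of 21 such genes 14 had no count in any library, as had 45.7% of all genes in the table, and 1, Gata4, reached 1 CPM in every library, against 33.8% of all genes. Gata4, a factor of heart and gut development, stood at 8.79, 8.62 and 9.90 CPM in C1, C2 and C3. Hoxa9 followed at 0.979 ± 0.156 CPM, and Pax3 and Pax6 had 4 and 7 counts over the 3 libraries. Pax7, Gata6 and Sox17 were at 0. Cdkn2a and Cdkn2b, which are among the 21 and are singled out here after their values were seen because they are textbook targets of BMI1, were at 0 as well, with the same limits as Ezhip. Many of these genes are expressed in few tissues, and whether they carry Polycomb marks in 4T1 cells was not measured. At 0 counts a silenced gene and a lost gene cannot be told apart, and any part of Bmi1 was not tested.

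**Figure D3:**
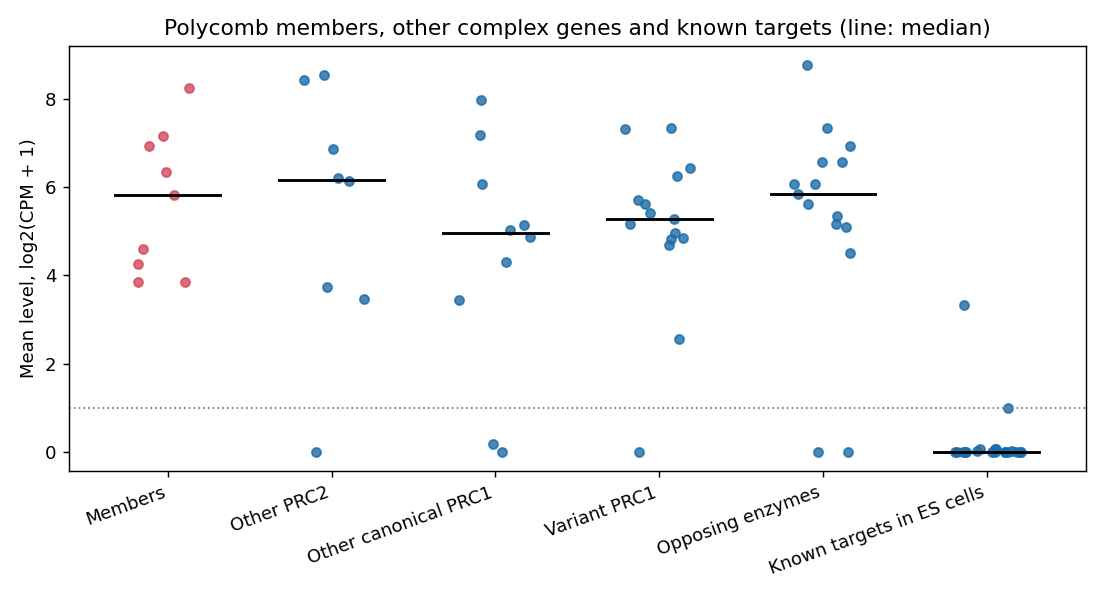
Mean level over the 3 libraries as log2(CPM + 1) (vertical axis) of each gene (point) in the 9 members and 5 further lists; bars are list medians and the dotted line marks 1 CPM. The median CPM was 55.9 for the 9 members, and 1 of the 21 known targets lay above the dotted line in every library.

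The 9 genes differed little between libraries. Their coefficient of variation ran from 0.169% for Cbx2 to 7.65% for Bmi1, with a median of 3.98%, against 4.95% for all genes that reached 1 CPM throughout. These medians were not matched for level, and the members had the higher median level (55.9 against 35.9 CPM) and so less counting error. The lower median is therefore not read as a trait of the 9 genes. The value of Cbx2 is smaller than its counting error can resolve and does not mark it as unusually constant. The 95% intervals of all 3 libraries shared a value for 6 of the 9 genes, the exceptions being Ezh2, Suz12 and Bmi1. These are also the genes with the most counts, so smaller differences could be seen for them.

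Against counting noise alone, 3 of the 9 genes (33.3%) varied between libraries, and 39.3% of all 13026 genes tested did so (Poisson dispersion test, Benjamini-Hochberg adjusted p under 0.05). They were Suz12 (adjusted p = 6.51e-21), Bmi1 (adjusted p = 1.81e-12) and Ezh2 (adjusted p = 0.0018). The highest library exceeded the lowest by 1.12-fold for Suz12, 1.16-fold for Bmi1 and 1.08-fold for Ezh2. Relative to each gene's mean, Suz12 lay 0.08 higher on the log2 scale in C2 and at -0.08 in C3, and Bmi1 lay 0.09 higher in C1 and at -0.12 in C3. Without C2 the adjusted p of Ezh2 was 0.73, and without C3 that of Bmi1 was 0.265, so that each of these calls turned on 1 library. Suz12 passed with each of the 3 libraries left out in turn. With C1 left out, 3 of the 9 genes (33.3%) and 36.8% of all genes were called. Leaving out C2 gave 2 of the 9 (22.2%) against 13.8% of all genes, and leaving out C3 gave 2 of the 9 (22.2%) against 12.9%. The members' share was thus below that of all genes with 3 libraries and the filter used, and above it without C2 or without C3. With 3 libraries and no filter beyond 1 count in total, 26.5% of 18797 genes were called, below the members' 33.3%. With 1 CPM required in every library, 43.3% were called, above it. The direction turned on the setting, and 9 genes are too few to read it as a result about them.

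Against genes of similar level none of the 9 stood out. The quasi-likelihood F test of edgeR called 0 of them at an adjusted p under 0.05, where 0.0691% of all genes were called. At an unadjusted p under 0.05 it also called 0 of them, against 5.15% of all genes, and a DESeq2 flag for outlying dispersion marked 0 as well, against 0.768% of all genes. The lowest unadjusted p of the 9 in the edgeR test was that of Bmi1 (0.0767), whose dispersion was 3.44 times that of genes at its level, followed by Suz12 (2.05 times). The other 7 had a ratio below 1, as had 59.9% of all genes tested, and 5 of the 9 lay below the median ratio of all genes (0.739). Of the 33 further complex genes 29 could be tested. Of these 29, 8 varied beyond counting noise, where 39.3% of all genes tested did so. In the adjusted edgeR test 0 of the 29 were called, against 0.0691% of all genes. At an unadjusted p under 0.05 that test called 1 of them, against 5.15% of all genes.

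**Figure D4:**
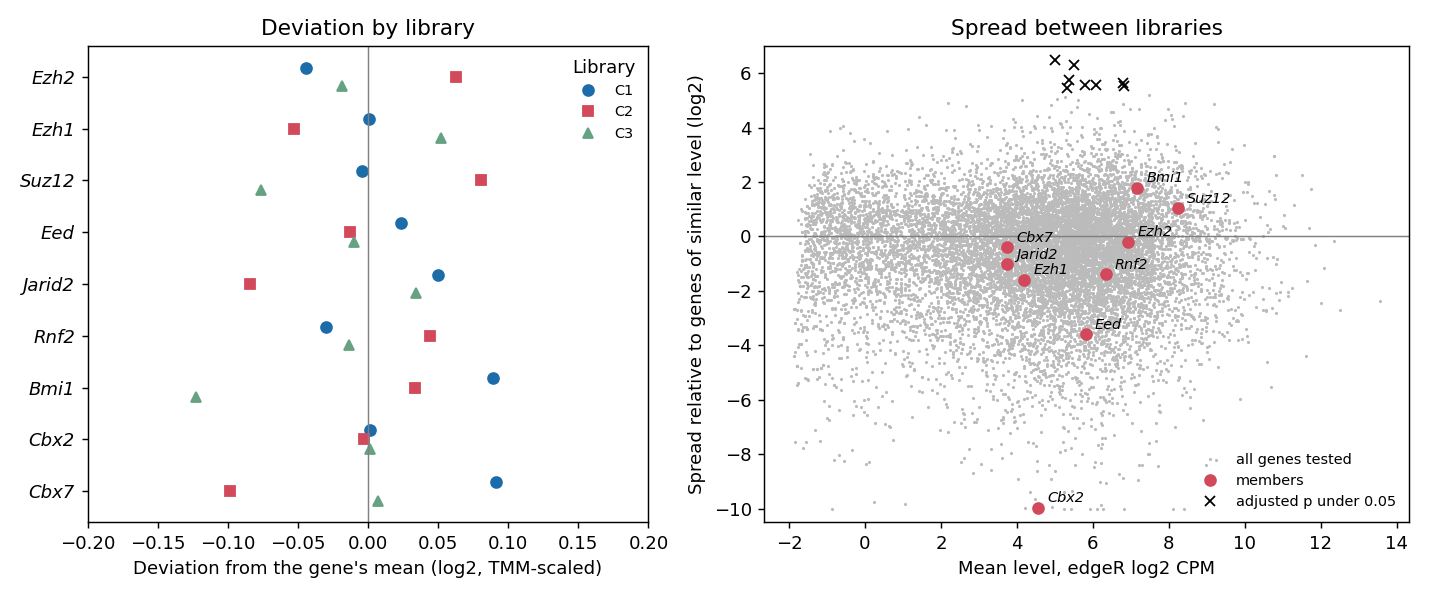
Left, deviation of libraries C1, C2 and C3 from each gene's mean on the log2 scale after TMM scaling (horizontal axis) for the 9 genes. Right, ratio of each gene's dispersion to that of genes at its level (vertical axis, log2, the lowest values drawn at the lower edge) against mean level in log2 CPM; crosses mark genes at an adjusted p under 0.05. Bmi1 and Suz12 lie above the line of equal dispersion and the other 7 members below it.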

How the data were processed

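Messenger RNA from 3 samples of WISP2 over-expressing 4T1 cells was sequenced after a stranded poly(A) library kit, per the labels' protocols. The authors deposited 1 table of whole-number read counts per gene symbol, not normalized, per the file headers. The submitters' processing notes name CASAVA 1.7, BWA, STAR and HTSeq and build mm9 without a role; the annotation and the strand setting of the counting are not known here. Since no column name matches a title, the 3 columns stand for the group and not for numbered samples.

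CPM used column totals. TPM divided counts by the union of exons in GENCODE M21, matched for 31440 of 34591 symbols (90.9%). That annotation is on another build and gave lengths, chromosomes and overlaps only. Intervals are exact 95% Clopper-Pearson intervals and a count of 0 was given the limit of 3 counts; both cover counting error only. Ratios were taken within libraries with 0.5 counts added. Spread was tested with TMM scaling, filterByExpr (13026 genes) and an intercept-only model in edgeR 4.0.16 (R 4.3.3), against counting noise (chi-square, 2 degrees of freedom) and against the trended prior (quasi-likelihood F test), after tests on simulated data. Alternatives covered scaling, length, filters, the robust prior, DESeq2 1.42.0 and leaving out each library. Other lengths for the family shares and the nearest genes were added after seeing the data. The members and lists were chosen with earlier results of these data known, and the family shares and promoter letters were added later. Named besides the members were, of each list, the 4 most abundant genes, up to 3 under 1 CPM, the genes of preset pairs, overlapping genes and the nearest gene in level. Kdm6b was named in addition, beside Kdm6a. The symbol Mll2, an older name of both Kmt2b and Kmt2d, was taken as Kmt2d, since Kmt2b is listed as Wbp7. One gene of the preset lists and pairs is not reported here, and the counts over lists and the family shares were computed without it.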

Additional observations from a re-analysis of the deposited data

How the results depend on the processing

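TMM or DESeq2 scaling moved the CPM of none of the 9 genes by more than its SD. Leaving out a library did not either, but with 3 libraries it cannot, so that setting tests nothing for CPM. The length used moved the ratios between genes. The log2 ratios among members were 2.73 in counts, 2.89 per exon union and 3.33 per longest transcript for Ezh2 over Ezh1, and -1.31, -1.74 and -0.66 for Ezh2 over Suz12. In the same order they were 1.12, 0.32 and 0.69 for Ezh2 over Eed, 2.43, 2.06 and 1.35 for Suz12 over Eed, -3.18, -3.72 and -4.77 for Jarid2 over Ezh2, 0.82, 0.88 and 0.65 for Bmi1 over Rnf2, and 0.80, 1.40 and 1.47 for Cbx2 over Cbx7. The count of genes varying beyond counting noise, 5118 with all libraries, ran between 1667 and 4908 with a library left out, and that of members between 2 and 3. Each such setting has fewer counts. The edgeR F test called 9 genes, 14 with column totals, 171 without the filter, 0 with a robust prior (588 at an unadjusted p under 0.05) and between 3 and 52 with a library left out, and DESeq2 flagged 100; none of these held a member. The cause was not tested. Of the known targets 2 reached 0.5 CPM in every library, and between 1 and 2 reached 1 CPM with a library left out. No paired analysis was possible because the series has 1 group. Depth limits the low genes most: Jarid2, Cbx7 and Ezh1 had 245, 253 and 323 counts in C1.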
